A study of Rattus norvegicus with 3 samples.

Results

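Molecular chaperones and protein folding enzymes were followed along the crypt-villus column of the rat jejunum by microarray. The members were all probes whose platform gene symbol begins with Hsp followed by a letter from a to h or a digit, with Dnaj, Pdia, Fkbp or Pfdn, with Ppi followed by a letter from a to h, with Cct2 to Cct8, or is Tcp1, Calr or Canx. This rule uses names only and no measured value. It gave 51 genes on 62 probes, of 4379 named genes on 4820 named probes in a table of 6653 probes. By the known location of their proteins, 30 genes (37 probes) were counted as cytosolic and nuclear, 7 (9 probes) as mitochondrial and 14 (16 probes) as residents or membrane proteins of the endoplasmic reticulum (ER). Most members had 1 probe, 9 had 2 and Dnajc7 had 3.

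The tissue came from untreated male Sprague-Dawley rats aged 6 weeks. Frozen jejunum had been cut across the villi in sections of 10 µm, 10 sections were joined per fraction of 100 µm, and 3 of the 7 fractions were hybridised: fraction 6 from the villus top (500 to 600 µm, crypt), fraction 4 (300 to 400 µm, middle villus) and fraction 1 (0 to 100 µm, top villus). Each part had 1 sample. Differences between parts therefore could not be set against replicates, and p-values are absent. The number of animals per sample is not in the labels, and a fraction holds the whole thickness of the villus or crypt, stroma and immune cells included.

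Chaperones bind proteins that are not yet folded or have lost their fold. In the cytosol a nascent chain can pass from Hsp70, which J proteins (the Dnaj genes) load with clients, to Hsp90 or to the closed chamber of the chaperonin CCT, also named TRiC, which prefoldin supplies with actin and tubulin. Mitochondria fold the proteins they import with an Hsp70 of their own and a chaperonin made of Hsp60 and Hsp10, and the ER folds secreted and membrane proteins with BiP, Grp94, the lectins calnexin and calreticulin and disulfide isomerases. Peptidyl-prolyl isomerases, the cyclophilins and FKBPs, turn proline bonds in all 3 compartments. In the intestine the crypt holds dividing cells with a high rate of protein synthesis, and the villus holds enterocytes, which carry digestive enzymes and transporters and secrete lipoproteins.

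All values are deposited log2 values. Within each column, the lowest 25% of probes ended at 6.05 (crypt), 4.15 (middle villus) and 5.15 (top villus). Values at or below these levels are called dim, and higher ones measured. A difference with 1 dim side was taken against these levels and is written as "at least". The levels differ between columns, which fixes some calls in advance. A probe measured in crypt and dim in the middle villus always comes out lower by more than 2-fold. Likewise, a probe dim in the middle villus and measured at the top always comes out higher by at least 2-fold. The word higher or lower is used as a call from 2-fold on, a log2 difference of 1. As a yardstick, only the spread between probes that share a gene was available. Pooled over the whole table, the SD between such probes in log2 difference from crypt was 0.91 at the top and 0.90 in the middle villus. Between middle and top it was 1.05. These probes lie on the same 3 arrays, so this SD holds no variation between animals, dissections, amplifications or arrays. A difference outside 2 SDs is therefore not one shown to exceed sample error. A gene with 1 probe thus lay outside 2 SDs at 3.55-fold, 3.49-fold and 4.27-fold. The distributions of the 3 columns differ. The median log2 difference of all genes was -0.39 from crypt to top, -0.08 from crypt to middle and 0 from middle to top, and with the columns set to a common median it was -0.15, -0.10 and 0.24.

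Markers of the labelled parts were checked first. All 6 markers of dividing crypt cells compared were lower in both villus parts than in crypt, and of the villus enterocyte markers 8 of 9 were higher at the top and 9 of 10 in the middle. The exception at the top was Si (sucrase-isomaltase), at 8.14 in crypt, 10.95 in middle villus and dim at the top, and in the middle Lct (lactase), dim in crypt, at 5.89 in the middle and 9.01 at the top. At the top, Slc5a1, a glucose transporter not compared there, was dim too.

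Many chaperones and folding enzymes were lower in the villus than in the crypt. Against crypt, 31 of the 49 members compared were lower at the villus top and 5 were higher, where 39.5% of all 3932 genes compared were lower and 23.9% higher. In the middle villus 24 of 48 were lower and 2 higher (Calr and Hsp90b1), where 29.5% of all genes were lower and 19.1% higher. Of these 24, 14 were measured in both parts, and the other calls were fixed by the dim levels. Among genes measured in both parts, 14 of 35 members were lower and 2 higher, against 662 and 558 of all 2899 genes. The median log2 difference of the members was -1.30 at the top and -0.89 in the middle villus. Between middle and top villus, 15 of 41 members were lower at the top and 5 higher, against 27.4% and 29.5% of all genes, with a median of -0.63. Mitochondrial members had the most negative median against crypt, cytosolic and nuclear members came next, and the ER members split. At 4-fold, 16 members were lower and 1 higher at the top than in crypt, against 22.0% and 12.1% of all genes. In the middle villus 17 were lower and 1 higher at 4-fold, against 18.7% and 6.12%, and from middle to top 5 were lower and 3 higher, against 13.7% and 13.8%. The 4-fold count in the middle villus includes members that were dim there. Quantile normalization evened the calls of all genes in the middle villus to 24.4% higher and 24.5% lower, with 4 members higher and 19 lower. These comparisons share samples, and with 1 sample per part the excess over the background was not tested.

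Among members measured in both parts, 13 of 34 lay more than 2 SDs below crypt at the top, against 20.7% of all such genes, and 1 lay above (Dnajc22), against 12.5%. For the middle villus these counts were 10 of 35 below, against 11.7%, and 1 above (Calr), against 7.49%. From middle to top villus 3 of 33 lay below (Cct7, Dnajc15 and Tcp1), against 9.88%, and 1 above (Dnajb1), against 8.43%. Members measured numbered 48 in crypt and 38 in each villus part. Fkbp5 and Ppic were dim on their probes in every part and entered no comparison.

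**Figure D1:**
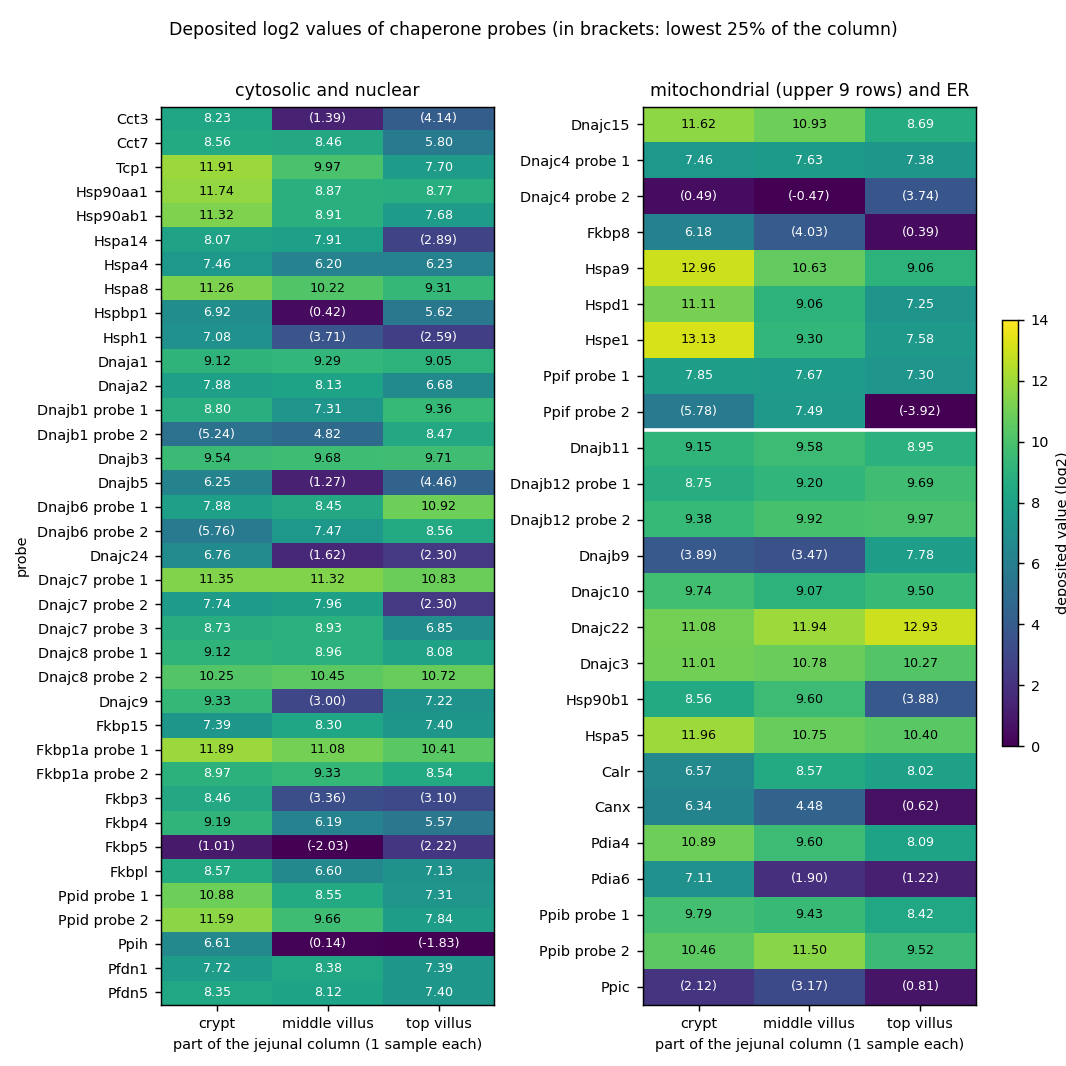
Deposited log2 value of each of the 62 member probes (rows) in crypt, middle villus and top villus (columns, 1 sample each). Values in brackets are dim. The left panel holds the 37 cytosolic and nuclear probes, the right panel the 9 mitochondrial probes above the white line and the 16 ER probes below it. The mitochondrial probes of Hspe1, Hspa9 and Hspd1 darken from left to right, while Dnajb6 and Dnajc22 brighten.

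**Figure D2:**
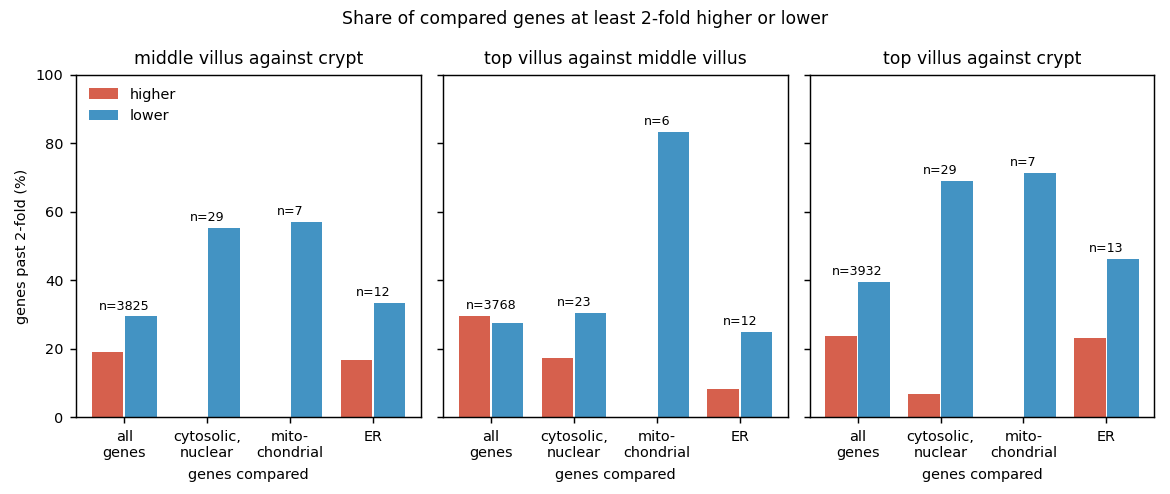
Percentage of compared genes at least 2-fold higher (red) or lower (blue) in each comparison, for all genes and for the 3 compartments, with the number compared above the bars. In top villus against crypt the blue bars stand at 39.5% for all genes, 69.0% for cytosolic and nuclear, 71.4% for mitochondrial and 46.2% for ER members.

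Most mitochondrial members were lower at the top, and the chaperonin and Hspa9 at both steps. At the top 5 of 7 were lower than in crypt, 0 were higher and the median was -2.92. In the middle villus 4 of 7 were lower. The median there was -2.03, which is the bound of Fkbp8, and -0.77 under quantile normalization. From middle to top 5 of 6 were lower, with a median of -1.65. These shares of 71.4%, 57.1% and 83.3% stood against 39.5%, 29.5% and 27.4% of all genes. Hspe1 (Hsp10), the lid of the mitochondrial chaperonin, had a value of 13.13 in crypt, 9.30 in middle villus and 7.58 at the top, which is 46.9-fold lower at the top than in crypt and the widest difference of any member. Hspd1 (Hsp60), the chamber under that lid, was at 11.11, 9.06 and 7.25 in the same order, or 14.6-fold lower at the top. Both subunits of the chaperonin were thus lower by more than 2-fold at each of the 2 steps.

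Hspa9 (mortalin), the mitochondrial Hsp70 that also pulls imported chains through the inner membrane, took the same course, with 12.96 in crypt, 10.63 in middle villus and 9.06 at the top, a 14.9-fold difference. Dnajc15, a J protein of the import motor, was at 11.62, 10.93 and 8.69, so that most of its 7.59-fold difference lay between middle and top villus. Fkbp8, an FKBP of the outer membrane, was just above the dim level in crypt at 6.18 and dim in both villus parts, at least 2.04-fold lower at the top. Its call at the top was lost under quantile normalization (-0.20), a common median (-0.78) and a common 75th percentile (-0.91), and in the middle villus under quantile normalization (-0.20). Dnajc4 and Ppif were within 2-fold of crypt in both villus parts. Dnajc4, whose mitochondrial place is less well established, had 7.46, 7.63 and 7.38 on its measured probe, and its other probe was dim in every part. Ppif (cyclophilin D), a regulator of the permeability transition pore, had 7.85, 7.67 and 7.30 on its first probe. Its second probe was dim in crypt, measured at 7.49 in middle villus and dim at the top, so the 2 probes did not give the same course. From middle to top Ppif was lower on average (-1.36), a call that rests on the second probe, since the first differed by -0.37.

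Hspe1 and Hspd1 lie head to head in the genome. In the RefSeq table of the GRCr8 assembly their starts are 290 bases apart on opposite strands of chromosome 9, so that their promoter windows overlap. The promoter table held 43 of the 51 members, and the 250 bases before each start were searched on both strands. Heat shock factors bind inverted repeats of GAA, and 2 adjoining units were searched as GAANNTTC and TTCNNGAA, whose matches can overlap each other. Such a pair was found in 9 of 43 member promoters (20.9%), against 13.5% of all 33469 promoters: in 3 of 6 mitochondrial members (Hspe1, Hspd1 and Hspa9), in 6 of 25 cytosolic and nuclear members (Dnaja1, Dnajb1, Dnajb6, Fkbp4, Hspa8 and Hsph1) and in 0 of 12 ER members. The matches of Hspe1 and Hspd1 are the same stretch read on opposite strands, counted once for each gene. A match describes these letters only, and the genes that hold one differed in direction. The promoters below, from RefSeq with build GRCr8, belong to the 7 members of all compartments that were lower by 2-fold at both steps from crypt to top, Hspd1 sharing the window of Hspe1. Each ends at the base before the start, and capitals mark the paired GAA units. Hspe1 has 3 overlapping matches from 65 bases before its start and Hspa9 has 1 at 84 bases, while no match was in the windows of Hsp90ab1, Tcp1, Ppid and Pdia4.
Hspe1, chr9:64084077-64084326, plus strand: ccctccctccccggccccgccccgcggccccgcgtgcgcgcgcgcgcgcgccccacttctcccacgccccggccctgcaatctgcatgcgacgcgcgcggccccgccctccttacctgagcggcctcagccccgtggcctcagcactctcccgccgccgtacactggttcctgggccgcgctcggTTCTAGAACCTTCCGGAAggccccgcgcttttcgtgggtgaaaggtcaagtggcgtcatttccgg
Hspa9, chr18:26828399-26828648, minus strand: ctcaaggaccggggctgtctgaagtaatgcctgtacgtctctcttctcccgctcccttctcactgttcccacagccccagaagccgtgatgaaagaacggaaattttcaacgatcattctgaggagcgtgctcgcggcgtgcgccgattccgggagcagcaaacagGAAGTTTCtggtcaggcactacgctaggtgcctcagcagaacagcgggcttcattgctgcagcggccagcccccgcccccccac
Hsp90ab1, chr9:22930173-22930422, plus strand: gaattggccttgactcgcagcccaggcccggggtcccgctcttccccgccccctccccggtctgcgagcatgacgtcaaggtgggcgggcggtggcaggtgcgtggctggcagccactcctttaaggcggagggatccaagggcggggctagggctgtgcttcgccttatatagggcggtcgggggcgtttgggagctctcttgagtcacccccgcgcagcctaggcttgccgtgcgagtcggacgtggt
Tcp1, chr1:50384528-50384777, minus strand: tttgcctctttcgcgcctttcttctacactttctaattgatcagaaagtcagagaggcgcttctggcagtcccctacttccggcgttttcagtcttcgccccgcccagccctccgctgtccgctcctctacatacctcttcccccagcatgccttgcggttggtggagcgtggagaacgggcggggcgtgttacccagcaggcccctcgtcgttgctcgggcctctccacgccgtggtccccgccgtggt
Ppid, chr2:167025735-167025984, plus strand: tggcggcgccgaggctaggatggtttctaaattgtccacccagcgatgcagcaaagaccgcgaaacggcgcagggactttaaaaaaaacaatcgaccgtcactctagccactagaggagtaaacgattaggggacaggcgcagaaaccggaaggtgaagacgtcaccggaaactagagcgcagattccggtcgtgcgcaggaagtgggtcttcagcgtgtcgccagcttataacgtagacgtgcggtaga
Pdia4, chr4:78153192-78153441, minus strand: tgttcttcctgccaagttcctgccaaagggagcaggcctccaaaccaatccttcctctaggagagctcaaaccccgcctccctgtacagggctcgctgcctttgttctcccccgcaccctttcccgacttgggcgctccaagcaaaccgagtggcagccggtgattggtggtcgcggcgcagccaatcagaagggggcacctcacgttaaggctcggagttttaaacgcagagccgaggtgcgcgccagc

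**Figure D3:**
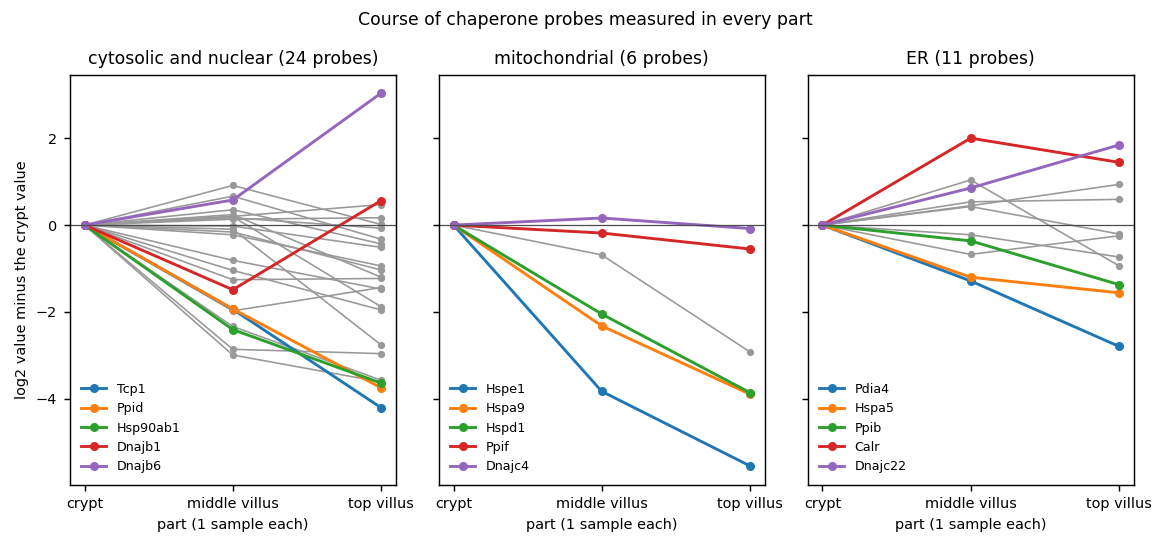
Log2 value minus the crypt value (y axis) in crypt, middle villus and top villus (x axis, 1 sample each) for the 41 member probes measured in every part, in 3 panels by compartment. Grey lines are single probes, and coloured lines mark the 3 lowest and 2 highest probes at the top. Hspe1 ends at -5.55 and Tcp1 at -4.21, Dnajb6 at 3.04 and Dnajc22 at 1.85.

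Many cytosolic and nuclear members were lower in the villus. At the top 20 of 29 were lower than in crypt and 2 were higher (Dnajb1 and Dnajb6), with a median of -1.47. In the middle villus 16 of 29 were lower and 0 higher, and the median was -1.26. From middle to top villus 7 of 23 were lower and 4 higher, and the median was -0.72. The shares lower at the top and in the middle villus were 69.0% and 55.2%, against 39.5% and 29.5% of all genes. The shares higher were 6.90% and 0%, against 23.9% and 19.1%. From middle to top the share lower, 30.4%, was near the 27.4% of all genes, and 17.4% were higher, against 29.5%. Of the median in the middle villus much rests on dim values, since it was -0.23 for the probes measured in all 3 parts. Of the 16 members lower in the middle villus, 8 were measured in both parts, and the calls of the others were fixed by the dim levels.

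The 7 genes of the cytosolic Hsp70 and Hsp90 systems were all lower at the top than in crypt in the values as deposited, and 6 of them already in the middle villus. Of all genes, 39.5% were lower at the top and 29.5% in the middle villus. At the top the call of Hspbp1 was lost under quantile normalization (-0.87) and that of Hspa4 with a common median (-0.99), and in the middle villus that of Hspa4 under quantile normalization (-0.82). Hsp90ab1, the constitutive Hsp90, was at 11.32 in crypt, 8.91 in middle villus and 7.68 at the top, 12.5-fold lower. Hsp90aa1, the inducible form, was at 11.74, 8.87 and 8.77, so that nearly all of its 7.80-fold difference lay between crypt and middle villus. Both Hsp90 genes stood outside 2 SDs in both villus parts. Hspa8 (Hsc70), the constitutive Hsp70, was at 11.26, 10.22 and 9.31, or 3.88-fold lower at the top, and Hspa4, an Hsp110 that exchanges nucleotide on Hsp70, at 7.46, 6.20 and 6.23. Hsph1, the other Hsp110, was measured in crypt only, at 7.08, and was at least 3.81-fold lower at the top.

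Hspa14, a ribosome-bound Hsp70, kept its value from crypt (8.07) to middle villus (7.91) and was dim at the top, where it was at least 7.57-fold lower than in crypt. Hspbp1, an exchange factor that slows Hsp70, was at 6.92 in crypt, dim in middle villus and at 5.62 at the top. It was the only 1 of the 7 genes that was higher at the top than in the middle, by at least 2.79-fold.

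The chaperonin CCT was represented by 3 of its subunits, and all 3 were lower at the top, against 39.5% of all genes. Tcp1 (subunit alpha) was at 11.91 in crypt, 9.97 in middle villus and 7.70 at the top, 18.5-fold lower and with a call at both steps. Cct7 (eta) was at 8.56, 8.46 and 5.80, with its 6.78-fold difference entirely between middle and top. Cct3 (gamma) was at 8.23 in crypt and dim in both villus parts, at least 8.47-fold lower at the top. Subunits of 1 complex thus had different courses to the middle villus and the same direction at the top. Both prefoldin subunits on the table stayed within 2-fold in every comparison: Pfdn1 was at 7.72, 8.38 and 7.39, and Pfdn5 at 8.35, 8.12 and 7.40.

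Of 10 cytosolic and nuclear J proteins, 5 were lower and 2 higher at the top than in crypt, shares near those of all genes (39.5% and 23.9%). Dnajb6, which holds back aggregation and binds keratins, had the widest positive difference from crypt at the top in the values as reported: its first probe was at 7.88 in crypt, 8.45 in middle villus and 10.92 at the top, and its second was dim in crypt and at 7.47 and 8.56 in the villus. Averaged over both probes it was at least 6.85-fold higher at the top than in crypt. With no detection filter, Dnajb9 passed it there (3.89 against 2.92). Dnajb1 (Hsp40), the stress-inducible partner of Hsp70, dipped in the middle villus on its first probe, with 8.80, 7.31 and 9.36, and on its second was dim in crypt, 4.82 in the middle and 8.47 at the top. From middle to top villus both probes were higher, by 7.23-fold on average, outside 2 SDs. Against crypt the call of Dnajb1 rests on the second probe, since the first alone differed by 0.56.

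On the lower side, Dnajc9, which is also a histone chaperone in DNA replication, was at 9.33 in crypt, dim in middle villus and at 7.22 at the top, 4.32-fold lower than in crypt. Dnaja2, a type I partner of Hsp70, was at 7.88, 8.13 and 6.68, a call at the top that was lost under quantile normalization (-0.98) and a common median (-0.96), while its relative Dnaja1 was level at 9.12, 9.29 and 9.05. Dnajc7, which links Hsp70 and Hsp90, was level from crypt to middle villus on all 3 probes. At the top its brightest probe differed from crypt by -0.51, within 2-fold, another by -1.88, and the probe that was dim there was at least 6.03-fold lower, so that the call of the gene mean is lost with the brightest probe alone. Dnajb5 and Dnajc24, the latter a J protein of diphthamide synthesis, were measured in crypt only, at 6.25 and 6.76, and were at least 2.15-fold and 3.05-fold lower at the top. The calls of Dnajb5 were lost under quantile normalization (-0.30 in both villus parts), and at the top also with a common median (-0.86) and a common 75th percentile (-0.98). Dnajb3 was level at 9.54, 9.68 and 9.71, and so was Dnajc8, a J protein of the spliceosome, on average over 2 probes that differed from crypt by -1.03 and 0.47 at the top.

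Of 7 cytosolic and nuclear prolyl isomerases compared, 5 were lower and none higher, both at the top and in the middle villus. This share of 71.4% stood against 39.5% of all genes lower at the top and 29.5% in the middle villus. Ppid (cyclophilin 40) and Fkbp4 (FKBP52), both co-chaperones of Hsp90 and steroid receptors, stood outside 2 SDs in both villus parts. The 2 probes of Ppid were at 10.88 and 11.59 in crypt, 8.55 and 9.66 in middle villus and 7.31 and 7.84 at the top, which averaged to 12.7-fold lower. Fkbp4 was at 9.19, 6.19 and 5.57, or 12.3-fold lower. For both the larger step lay between crypt and middle villus. From middle to top villus Ppid was lower by more than 2-fold (-1.53), as was Hsp90ab1 (-1.23), whereas Fkbp4 (-0.62) was within 2-fold, as was Hsp90aa1 (-0.10).

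Fkbpl, a relative of FKBP52, was at 8.57, 6.60 and 7.13. The nuclear isomerases Fkbp3 and Ppih, the latter a part of the spliceosome, were measured in crypt only, at 8.46 and 6.61, and were at least 9.96-fold and 2.76-fold lower at the top, where, as in the middle villus, the call of Ppih was lost under quantile normalization (-0.92). Fkbp1a (FKBP12), the cytosolic target of tacrolimus, had 11.89, 11.08 and 10.41 on one probe and 8.97, 9.33 and 8.54 on the other, within 2-fold on average in every comparison. Fkbp15 was at 7.39 in crypt, 8.30 in middle villus and 7.40 at the top. The brighter probe of Fkbp1a alone was 2.78-fold lower at the top than in crypt. Fkbp5 (FKBP51), another partner of Hsp90, was dim in every part.

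**Figure D4:**
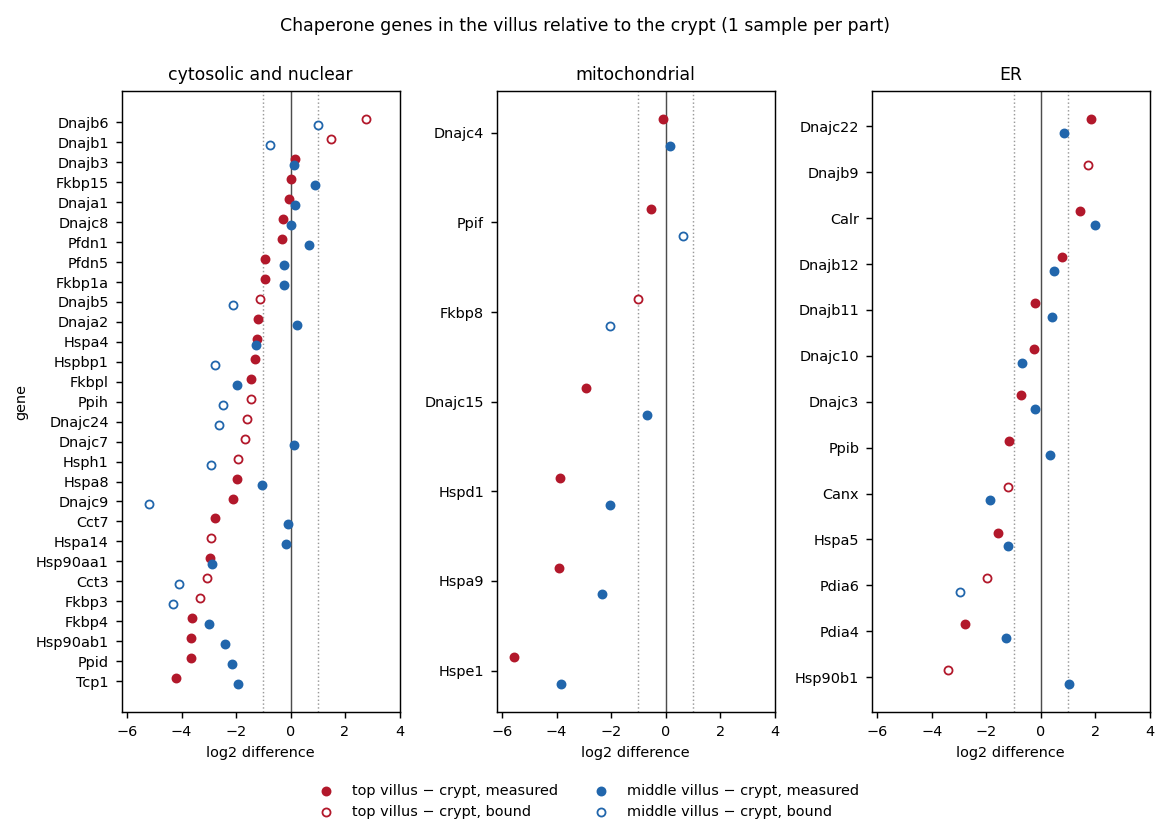
Log2 difference from crypt (x axis) of each member compared at the top (red) and in the middle villus (blue), 1 sample per part, in 3 panels by compartment with genes ordered by the difference at the top. Filled circles were measured in both parts, open circles rest at least in part on a dim value, and dotted lines mark 2-fold. All 7 mitochondrial members lie below 0 at the top, while the ER members spread from -3.41 to 1.85.

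The ER members divided. Of 13 compared at the top, 6 were lower and 3 higher than in crypt, and the median was -0.73. In the middle villus 4 of 12 were lower and 2 higher, and the median was 0.06, and from middle to top 3 of 12 were lower and 1 higher, and the median was -0.43. The share lower, 46.2% at the top and 33.3% in the middle villus, was near that of all genes (39.5% and 29.5%).

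The ER Hsp70 and Hsp90 differed in course. Hspa5 (BiP), the Hsp70 of the ER lumen, was at 11.96 in crypt, 10.75 in middle villus and 10.40 at the top, 2.95-fold lower and mostly at the first step. Hsp90b1 (Grp94) was higher in middle villus (9.60) than in crypt (8.56), by 2.06-fold, and was dim at the top, at least 21.9-fold lower than in the middle. No other ER member was higher by 2-fold at the first step and lower at the second.

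The lectins calreticulin and calnexin, which hold glycoproteins in the same folding cycle, went opposite ways. Calr was at 6.57 in crypt, 8.57 in middle villus and 8.02 at the top, 4.01-fold higher in the middle than in crypt and 2.73-fold at the top. Canx was at 6.34, 4.48 and dim, 3.64-fold lower in the middle and at least 2.29-fold lower at the top. Its crypt value was near the dim level, which limits the size that could be seen, and both calls were lost under quantile normalization, with -0.23 in the middle villus and -0.45 at the top, and the call at the top also with a common median (-0.95). The disulfide isomerases were lower: Pdia4 (ERp72) was at 10.89, 9.60 and 8.09, or 6.94-fold lower at the top, and Pdia6 (P5) was measured in crypt only, at 7.11, and was at least 3.89-fold lower.

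Among the 6 ER J proteins none was lower by 2-fold in any comparison. Dnajb9 (ERdj4), a partner of BiP induced by unfolded proteins, was dim in crypt and middle villus and at 7.78 at the top, at least 3.32-fold higher than in crypt and at least 12.4-fold higher than in the middle. Dnajb12, which sits in the ER membrane, had 8.75, 9.20 and 9.69 on one probe and 9.38, 9.92 and 9.97 on the other. Dnajb11 (ERdj3), Dnajc3 (p58IPK) and Dnajc10 (ERdj5), a reductase, stayed within 2-fold: Dnajc3 was at 11.01, 10.78 and 10.27, and Dnajc10 at 9.74, 9.07 and 9.50. Dnajc22, a membrane J protein, was at 11.08, 11.94 and 12.93, or 3.59-fold higher at the top. Its place in the ER is not well established, and without it the ER median at the top was -0.94.

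Ppib (cyclophilin B), the prolyl isomerase of the ER lumen, had 9.79, 9.43 and 8.42 on one probe and 10.46, 11.50 and 9.52 on the other, 2.23-fold lower at the top than in crypt on average, a call lost with a common median (-0.91) and with the brightest probe (-0.94). Its probes parted in the middle villus, with differences from crypt of -0.36 and 1.04.

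The unfolded protein response acts on ER chaperone genes through an element that ends in CCACG. These 5 letters, searched alone on both strands of the same 250 bases, were in 9 of 12 ER promoters (75%), in 27 of all 43 member promoters (62.8%) and in 27.2% of all promoters. CCAAT, the letters of a general promoter box, was in 11 of 12 ER promoters (91.7%), in 26 of 43 member promoters (60.5%) and in 34.0% of all promoters. So short a word is common, and Calr, Canx, Hspa5 and Hsp90b1, which differed in direction, hold both. The words were searched apart and their spacing was not counted, though in Calr and Canx below CCAAT or its complement lies near the marked letters. The promoters of the lectins are shown because these genes differed in direction; capitals mark CCACG or its complement, which starts 232 bases before the start in Calr and 216 in Canx, and build and credit are as above.
Calr, chr19:40213117-40213366, plus strand: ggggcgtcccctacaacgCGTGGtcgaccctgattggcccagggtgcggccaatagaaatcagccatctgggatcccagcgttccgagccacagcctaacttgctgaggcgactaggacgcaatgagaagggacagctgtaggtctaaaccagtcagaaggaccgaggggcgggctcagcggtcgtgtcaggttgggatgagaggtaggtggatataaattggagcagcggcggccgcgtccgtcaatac
Canx, chr10:35157858-35158107, minus strand: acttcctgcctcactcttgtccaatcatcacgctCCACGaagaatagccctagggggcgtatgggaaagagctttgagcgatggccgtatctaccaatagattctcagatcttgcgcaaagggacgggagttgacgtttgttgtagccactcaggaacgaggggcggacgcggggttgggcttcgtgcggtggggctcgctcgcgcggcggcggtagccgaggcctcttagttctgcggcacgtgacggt

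Plasma cells, which secrete antibodies and are rich in ER chaperones, had markers in the fractions. Of 9 B and plasma cell markers listed 3 were on the table: Jchain was at 12.46 in crypt, 13.64 in middle villus and 5.62 at the top, Derl3 at 6.99, 7.43 and dim, and Tnfrsf17 at 7.36 and dim in both villus parts. Their summed linear signal was 5919 in crypt, 12977 in middle villus and 50.3 at the top. Over the 3 samples Hsp90b1, Jchain and Derl3 were highest in the middle villus and lowest at the top, whereas Tnfrsf17 was highest in crypt. Derl3 is also on the list of ER folding and degradation genes used below, so it marks plasma cells less clearly. Genes on no marker list had this order too, among them Hyou1 and Tomm20, whose values are given below. The ER members did not share 1 course. Dnajb11 and the mean of Ppib had the same order as Hsp90b1, within 2-fold of crypt in the middle villus. Hspa5, Pdia4 and Pdia6 were lower there than in crypt. The 3 goblet cell markers summed to 17120, 16881 and 16473, mostly from Tff3 and Zg16, whereas Clca1 was at 10.99, 10.38 and dim, at least 57.4-fold lower at the top. Paneth cell markers summed to 9596, 3386 and 4369, while markers of dividing crypt cells summed to 8075, 243 and 185. Macrophage and MHC class II markers summed to 4540, 16743 and 46811, with 4 of 4 higher at the top than in crypt, and T cell markers to 2973, 3196 and 4372, with 4 of 5 higher and Cd3g lower. The part of these cells in the chaperone values was not tested, and in such bulk fractions fewer cells of a type and less RNA per cell cannot be told apart.

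Along the whole column, 40 members were compared at both steps and were placed by their calls at 2-fold. Both steps were downward in 7 (17.5%, against 4.63% of all 3542 genes so compared): Hsp90ab1, Hspa9, Hspd1, Hspe1, Pdia4, Ppid and Tcp1. Only the first step was a downward call in another 7 (17.5%, against 9.54%), namely Canx, Fkbp4, Fkbpl, Hsp90aa1, Hspa4, Hspa5 and Hspa8, and only the second in 7 more (17.5%, against 16.9%), namely Cct7, Dnaja2, Dnajc15, Dnajc7, Hspa14, Ppib and Ppif. An upward call alone was seen in Calr at the first step (2.5%, against 7.91%) and in Dnajb1 and Dnajb6 at the second (5%, against 10.2%). Dnajc9 and Hspbp1 went down and then up (5%, against 9.68%). Both were dim in the middle villus, so that the dim levels fixed their calls at both steps. Hsp90b1 went up and then down (2.5%, against 7.62%), and 13 members had no call at either step (32.5%, against 28.4%). The second call of Hsp90ab1 was lost under quantile normalization (-0.95) and with a common median (-0.97), and the upward call of Hspbp1 under quantile normalization (0.53) and with the common floor of 32 (0.62). A call at both steps upward was seen in 0 members, against 5.08% of all genes. Another 9 members were compared at 1 step only: Dnajb9 was dim up to the middle villus, and the other 8 (Cct3, Dnajb5, Dnajc24, Fkbp3, Fkbp8, Hsph1, Pdia6 and Ppih) were lower at the first step and dim in both villus parts, so that a second step could not be seen. The first-step calls of these 8 were fixed by the dim levels.

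Partners of these chaperones that the naming rule does not catch were read from 3 lists. Of 10 cytosolic co-chaperones and heat shock genes on the table, 3 were lower and 1 higher at the top than in crypt, both smaller shares than among all genes (39.5% and 23.9%), and the median was -0.60. Nudc, a partner of dynein and Hsp90, was at 11.85, 10.75 and 9.57 on one probe and at 7.72 and then dim in both villus parts on the other, at least 5.37-fold lower at the top on average. Ahsa1, which stimulates the Hsp90 ATPase, was at 11.05, 9.84 and 9.25 on one probe and 9.46, 8.86 and 6.62 on the other, 4.99-fold lower on average. St13 (Hip), which joins Hsp70 and Hsp90, was at 7.50, 5.96 and dim, at least 5.11-fold lower. Bag3, a stress-induced partner of Hsp70, was higher: it stood at 8.21 in crypt, 8.58 in middle villus and 11.38 at the top, 8.96-fold above crypt. Bag5 was at 8.63 in crypt, dim in middle villus and at 8.04 at the top, at least 14.9-fold higher there than in the middle, a call that the dim levels fixed. Bag3, Bag5, Dnajb1 and Dnajb6 thus all had an upward call between middle and top villus. Of the 10 genes on this list, 2 were higher and 2 lower at that step (20% each, against 29.5% and 27.4% of all genes). Dnajb6 fell just short of a call in the middle villus too, with a bound of 0.999 against crypt. Its second probe alone was at least 2.68-fold higher there.

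Of 7 genes of mitochondrial import and proteostasis, 4 were lower at the top (57.1%, against 39.5% of all genes). Clpx was higher (14.3%, against 23.9%), and the median was -1.24. Tomm20, an import receptor of the outer membrane, was at 9.52, 10.57 and 5.89, 12.4-fold lower at the top, and Timm23, the inner membrane channel, at 12.09, 11.94 and 9.13, 7.77-fold lower. In the middle villus, where the chaperonin genes were lower than in crypt, Tomm20 was 2.08-fold higher and Timm23 level. Lonp1, a matrix protease, was at 9.82, 8.74 and 7.23, and Grpel1, the exchange factor of Hspa9, at 7.22, 5.52 and 6.66. Clpx, the unfoldase of the ClpXP protease, was at 9.40, 10.13 and 10.41.

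Of 15 genes of ER folding, degradation and the unfolded protein response compared at the top, 6 were higher and 5 lower than in crypt, and the median was 0.20. These are 40.0% and 33.3%, against 23.9% and 39.5% of all genes. P4hb, the main disulfide isomerase, was higher, at 12.44, 13.72 and 14.53, a 4.26-fold difference at the top, which is opposite to Pdia4 and Pdia6. Hyou1 (Grp170), which exchanges nucleotide on BiP, was at 10.13, 10.29 and 7.68, and Creld2 at 8.87, 5.52 and dim, 5.47-fold and at least 13.2-fold lower at the top. Herpud1 and Edem1, which serve the disposal of misfolded proteins, were higher in both villus parts, Herpud1 at 7.38, 10.24 and 9.74 and Edem1 at 8.52, 10.80 and 10.24. Eif2ak3 (PERK), a sensor of unfolded proteins, was dim in crypt and at 5.86 and 9.27 in the villus parts, at least 9.35-fold higher at the top than in crypt, and Tmx1, a membrane thioredoxin, was dim in crypt and middle villus and at 8.15 at the top on one probe, at least 4.28-fold higher. Ddit3 (CHOP), a transcription factor of prolonged stress, was at 8.59, 8.85 and 11.86, 9.66-fold higher at the top, whereas Atf4, which acts before it, was level at 11.80, 11.61 and 11.78.

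Probes of 1 gene could be compared in 8 members for top villus against crypt and in 9 for each of the other comparisons. None had probes past 2-fold in opposite directions. The gap between the lowest and highest probe exceeded a log2 difference of 1 in 4, 4 and 5 of these genes, so that a difference near 2-fold on 1 probe is within what probes of the same gene can differ by. Several members have close relatives, and cross-hybridisation of their probes was not tested.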

How the data were processed

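RNA from 3 cryostat fractions of rat jejunum (1 sample each) was amplified and labelled with a linear amplification kit, per the labels' protocols. Samples were grouped by the part in their titles. The deposited log2 values were read as log2 from their range, whose maximum lies just under 16. How the authors normalized them, and from which dye channel, is something the sources used here do not give. The 3 scanner files (ScanArray Express 2.00 with LOWESS, per the file headers) hold 22575 spots each with no name or ID and were not used. Precision is limited by the number of arrays, since these values carry no depth. The array's genome build is not given, so the only coordinates stated are those of promoters in RefSeq's GRCr8 table.

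Probes were named by the platform annotation: 4820 have 1 symbol, the other 1833 are unnamed here. Longer regulatory elements, whose letters no file used here gives, are not reported. All 62 member probes were found in RefSeq (GRCr8) by Entrez identifier, with 0 symbols changed. 1 gene that matches the name pattern is not reported here. Values were compared as deposited. Probes that were dim in both parts of a comparison were left out of it, dim values were set to the level of the lowest 25% of their column, bounds did not pass 0, and a gene is the mean over its probes. Members, lists and rules were chosen with earlier results of these data known. Of the named genes, all members were accounted for, and of the other lists genes among the 4 of each sign with the widest differences in any comparison were given, bounds included. Dnajb3, on no list, was added to the cytosolic J proteins. The steps were tested on simulated data. Python 3.11.15, numpy 2.4.6, pandas 2.3.3 and matplotlib 3.10.9 were used. The 9 alternatives were quantile normalization, a common median or 75th percentile, no detection filter, only probes measured throughout, a linear floor of 32, the brightest probe per gene, and limits of 1.5-fold and 4-fold.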

Additional observations from a re-analysis of the deposited data

How the results depend on the processing

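No called gene difference changed sign under the 7 alternatives that recompute values, and 887 of 932 recomputed gene differences moved by less than the probe SD. This total says little about how firm the calls are, since several alternatives could hardly move a value. A common median or 75th percentile shifts nearly all genes alike and moved 0 of 138, and the brightest probe leaves the 41 members with 1 probe unchanged. Of the 45 that moved, 28 did so with no detection filter and 12 under quantile normalization. Some calls were lost, as given with the genes above. The counts below are given as reported first. For top villus against crypt, members higher went from 5 to 3 and lower from 31 to 18 with probes measured in all 3 parts, where 35 members remained to compare, and to 1 and 16 at 4-fold. Beside these, 24.2% of all genes were higher and 34.1% lower with probes measured in all 3 parts, and 12.1% and 22.0% at 4-fold. Under quantile normalization and under a common median 25 of 49 members were lower (51.0%), against 34.4% and 34.9% of all genes. For middle villus against crypt, members higher went from 2 to 4 under quantile normalization and with no detection filter, to 1 with probes measured in all 3 parts and at 4-fold, and to 7 at 1.5-fold, and members lower from 24 to 14 with probes measured in all 3 parts. In the same order, 24.4%, 21.4%, 19.5%, 6.12% and 27.7% of all genes were higher. With probes measured in all 3 parts, 40.0% of members and 21.6% of all genes were lower. For top against middle villus, members higher went from 5 to 9 with no detection filter, 2 with probes measured in all 3 parts and 3 at 4-fold, and lower from 15 to 5 at 4-fold. Of all genes, 33.2%, 20.6% and 13.8% were higher under these settings. At 4-fold the share of members lower, 12.2%, was near the 13.7% of all genes. The mitochondrial median for top villus against crypt was -3.90 with no detection filter, and for middle villus against crypt -0.77 under quantile normalization. The cytosolic and nuclear median for middle villus against crypt was -0.23 with probes measured in all 3 parts. The cause was not tested, except that fewer genes were compared with probes measured in all 3 parts. Leaving out Dnajc22 brought the ER median for middle villus against crypt from 0.06 to -0.22, and leaving out Dnajc4 the mitochondrial median at the top to -3.39, both chosen after seeing the data. The scanner channels were not run, since their spots could not be matched to probes. No paired analysis was possible because each part has 1 sample. Bounds limit what can be seen of members near the dim level.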
